A study of Homo sapiens with 6 samples.

Results

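Sterol and fatty acid synthesis was followed as 36 named genes of the human glioblastoma cell line U87 after rutaecarpine, an alkaloid that the study examined as an agonist of the aryl hydrocarbon receptor (AhR). The genes were chosen by name for their place in the pathway and cover 5 branches: 10 genes from acetyl-CoA through mevalonate to lanosterol, 8 from lanosterol to cholesterol, 5 that control the SREBP factors, 5 for sterol uptake, transport and efflux, and 8 for fatty acid synthesis. The deposited table lists 60671 genes. It names 35 of the 36, and ACACA was found by its Ensembl identifier. RNA-Seq had been made after an exposure of 48 h, either to rutaecarpine at 100 μM with 0.1% DMSO as its solvent (3 libraries) or to the solvent alone (3 libraries), and both groups were dosed in serum-free medium. The labels name no genetic change in either group. The labels do not say that the libraries of a group came from separate cultures, so the p values measure the spread between these libraries.

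Cells build cholesterol and fatty acids from the same cytosolic acetyl-CoA. Their enzymes are largely under the control of the SREBP factors, which are made as membrane proteins of the endoplasmic reticulum. When membrane sterol is low, SCAP carries them to the Golgi apparatus, where they are cut and released to the nucleus. When sterol is plentiful, the INSIG proteins hold SCAP in the endoplasmic reticulum. Glioblastoma cells are known for a high demand for cholesterol and for desaturated fatty acids.

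The values are TPM, which scale a gene's estimated reads by its length and each library to one total, so levels can be set side by side between genes but the number of reads is unknown. A TPM is also a share of the RNA of the whole culture, so that fewer cells of a kind and less transcript per cell cannot be told apart. Of the markers written down for the cell type, VIM (4430 to 7968 TPM), CD44 (415 to 837 TPM) and NES (12.3 to 21.0 TPM) were clearly present, GFAP lay at 3.48 to 5.41 TPM and OLIG2 at 1.48 to 4.11 TPM. Some of them moved with treatment. VIM fell by 0.63 on the log2 scale (limma adjusted p = 0.00894) and NES by 0.53 (limma adjusted p = 0.0491), while OLIG2 rose by 0.83 from a low level (limma adjusted p = 0.0262), each without overlap, and CD44 and GFAP did not pass. The part of these differences in the results on sterol and fatty acid genes was not tested. S100B and SOX2 did not pass 0.25 TPM and AQP4 was listed at 0 in all 6 libraries, so these astrocytic and neural markers were absent or nearly so. The markers of other cells were low, with PTPRC at no more than 0.03, RBFOX3 at 0.15, EPCAM at 0.80, PECAM1 at 1.33 and MBP at 1.61 TPM. None of these 5 reached the level for testing. PECAM1 had 0.54 to 0.71 TPM in the controls and 0.89 to 1.33 TPM after rutaecarpine, and MBP had 0.11 to 0.57 and 0.45 to 1.61 TPM. Control replicate 3 stood apart. Its median over tested genes was 3.56 on the log2(TPM + 1) scale, where the other 5 libraries had 3.81 to 4.00. Control replicates 1 and 2 correlated at a Pearson's r of 0.986 across genes, which are not independent replicates, and each correlated with control replicate 3 at 0.965. Values without control replicate 3 are therefore given beside those with all libraries where they differed most.

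Most genes of the pathway did not pass the test. INSIG1, which encodes a sterol-sensing anchor of SCAP, rose 2.58-fold, FADS2, a desaturase of polyunsaturated fatty acids, fell to 0.561 of the control level, and PMVK, the kinase of phosphomevalonate, fell to 0.631 of it. SCD, the desaturase that makes monounsaturated fatty acids and the most abundant transcript of the set in the controls, stood at 0.560 of the control mean without passing the test. Of the 36 genes, 34 entered the test, for which 3 or more libraries had to reach 1 TPM, while ABCG1 and MYLIP did not reach it. In limma on log2(TPM + 1), with p values adjusted by Benjamini-Hochberg across the 14377 genes tested, 1 of the 34 passed upward at an adjusted p of at most 0.05 (2.94%), where 4.6% of all tested genes did, and 2 passed downward (5.88%), where 4.68% of all tested genes did. These shares are close to those of all genes and are no result about the pathway as a whole. Only INSIG1 met the study's further criterion for a DEG, a log2 fold change larger than 1 in size (2.01% of all tested genes were up-regulated DEGs and 1.5% were down-regulated DEGs). The study set this criterion on results of DESeq2, DEGseq or edgeR and not of limma, so its own DEG list can differ. None of the members was a down-regulated DEG in the limma fit. At an unadjusted p under 0.05, 2 members were higher, where 13.4% of all tested genes were, and 9 were lower, where 11.0% of all tested genes were.

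**Figure D1:**
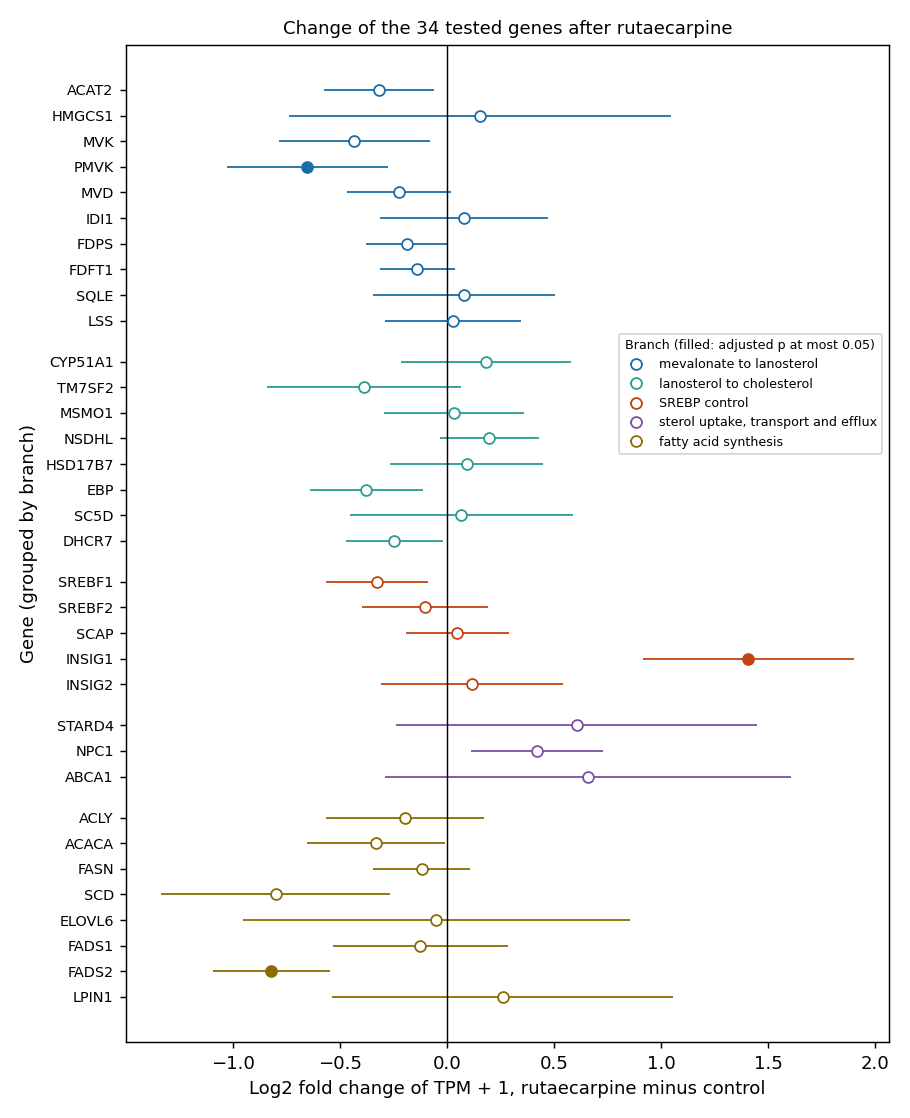
Log2 fold change of TPM + 1 (x axis, rutaecarpine minus control) for the 34 tested genes (y axis), grouped and coloured by branch. Points are limma estimates from 3 libraries against 3, bars are 95% confidence intervals, and filled points passed an adjusted p of 0.05. Only INSIG1 lies far to the right at 1.41, FADS2 at -0.82 and PMVK at -0.65 are the filled points on the left, and most intervals cross 0.

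Lower values without overlap were more frequent than higher ones. The rutaecarpine libraries all lay below the control libraries for 12 of the 34 genes (35.3%), against 14.0% of all tested genes, and all above them for 4 (11.8%), against 19.3%. Without control replicate 3 the counts were 16 lower (47.1%, against 26.3%) and 4 higher (11.8%, against 23.9%). With trends on transcript length and GC content removed they were 8 lower (23.5%, against 13.6%) and 5 higher (14.7%, against 21.8%). The median log2 fold change of the 34 genes was -0.08, where that of all tested genes was 0.08. The 4 genes with higher values and no overlap were INSIG1, NPC1, STARD4 and NSDHL. The 12 with lower values were ACAT2, MVK, PMVK, MVD, FDPS, FDFT1, EBP, DHCR7, SREBF1, ACACA, SCD and FADS2. With 3 libraries against 3 the smallest exact permutation p for a single gene is 0.1, so an absence of overlap alone passes no threshold.

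INSIG1 (ENSG00000186480) lies on chromosome 7 from 155297776 to 155310235 on the plus strand (GRCh38, GENCODE release 29). Its promoter is shown because INSIG1 carried the largest change of the set, and that of SCD because it was the most abundant member in the controls and had the next-to-lowest log2 fold change. Each sequence is the 250 bases before the RefSeq start (GRCh38.p14), read 5′ to 3′ on the strand of the gene, at chr7:155297628-155297877 for INSIG1 and chr10:100346983-100347232 for SCD, both on the plus strand. Capitals mark matches to the motifs searched on both strands.
INSIG1: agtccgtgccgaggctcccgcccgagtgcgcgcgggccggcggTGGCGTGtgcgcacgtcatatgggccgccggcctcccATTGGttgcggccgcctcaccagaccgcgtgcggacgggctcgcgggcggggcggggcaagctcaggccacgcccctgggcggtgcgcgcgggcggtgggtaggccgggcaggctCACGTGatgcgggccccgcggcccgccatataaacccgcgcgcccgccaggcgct
SCD: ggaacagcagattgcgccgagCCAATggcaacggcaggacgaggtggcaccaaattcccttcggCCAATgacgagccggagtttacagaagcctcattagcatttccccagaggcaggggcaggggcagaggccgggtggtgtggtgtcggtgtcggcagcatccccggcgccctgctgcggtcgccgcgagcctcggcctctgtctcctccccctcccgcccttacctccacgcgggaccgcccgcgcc

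In the INSIG1 sequence the capitals mark a match to TNGCGTG, the AhR response element core searched in the study, beginning 207 bases before the start, an NF-Y box (CCAAT, here on the opposite strand) at 170 bases and an E-box (CACGTG) at 55 bases. In the SCD sequence they mark NF-Y boxes at 229 and 186 bases. The RefSeq table held promoters for 31 of the 36 genes, some with several starts, and a gene was counted where any of its starts had a match. TNGCGTG was present for 5 of the 31 genes (16.1%), namely ACACA, IDI1, INSIG1, LSS and SC5D, against 4.52% of all 35116 promoter windows and 5.54% of all genes in the table counted in the same way. CCAAT was present for 20 of the 31 (64.5%), against 32.0% of windows and 37.0% of genes. CACGTG was present for 4 (ABCA1, INSIG1, SC5D and SCAP, 12.9%), against 6.34% of windows and 7.73% of genes. TCACNCCAC, a core of the sterol regulatory element, was found for SREBF2 only (3.23%, against 0.883% of windows and 1.09% of genes), and the LXR direct repeat, AGGTCA repeated with a spacing of 4 bases, in 0 of the 31. The windows are short, and the study searched longer stretches, upstream of coding sequences, so these counts cannot be set beside its own. Of the 5 genes with TNGCGTG only INSIG1 passed the test upward and none passed downward, so these matches are a description of the letters. No motif of this list matched in the FADS2 or PMVK windows.

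INSIG1 had 235, 226 and 133 TPM in control replicates 1, 2 and 3 and 522, 511 and 498 TPM in rutaecarpine replicates 1, 2 and 3. All treated libraries were above the controls, and they spread less (510 ± 11.7 TPM, SD, n = 3) than the control libraries did (198 ± 56.6 TPM, SD, n = 3). The log2 fold change was 1.41 (standard error 0.21, limma adjusted p = 0.00781), and 1.14 without control replicate 3 (adjusted p = 4.8e-05), which corresponds to a 2.21-fold ratio of the means. INSIG1 passed in each of the 14 alternative analyses, with adjusted p values from 2.8e-05 to 0.0450.

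INSIG2, the second INSIG gene, had 29.9, 24.8 and 23.2 TPM in the controls and 24.0, 35.9 and 25.6 TPM after rutaecarpine, so that its groups overlapped (log2 fold change 0.12, standard error 0.18, limma adjusted p = 0.717). The number of INSIG1 transcripts per INSIG2 transcript was 7.87, 9.11 and 5.73 in the controls and 21.7, 14.2 and 19.5 after rutaecarpine. The groups did not overlap, and the exact permutation test on the log2 ratio gave p = 0.1 (two-sided), the smallest that 3 against 3 can give. This ratio and 4 others below were chosen after the values were seen, and each of the 5 had an adjusted p of 0.1 over the 5 exact tests.

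**Figure D2:**
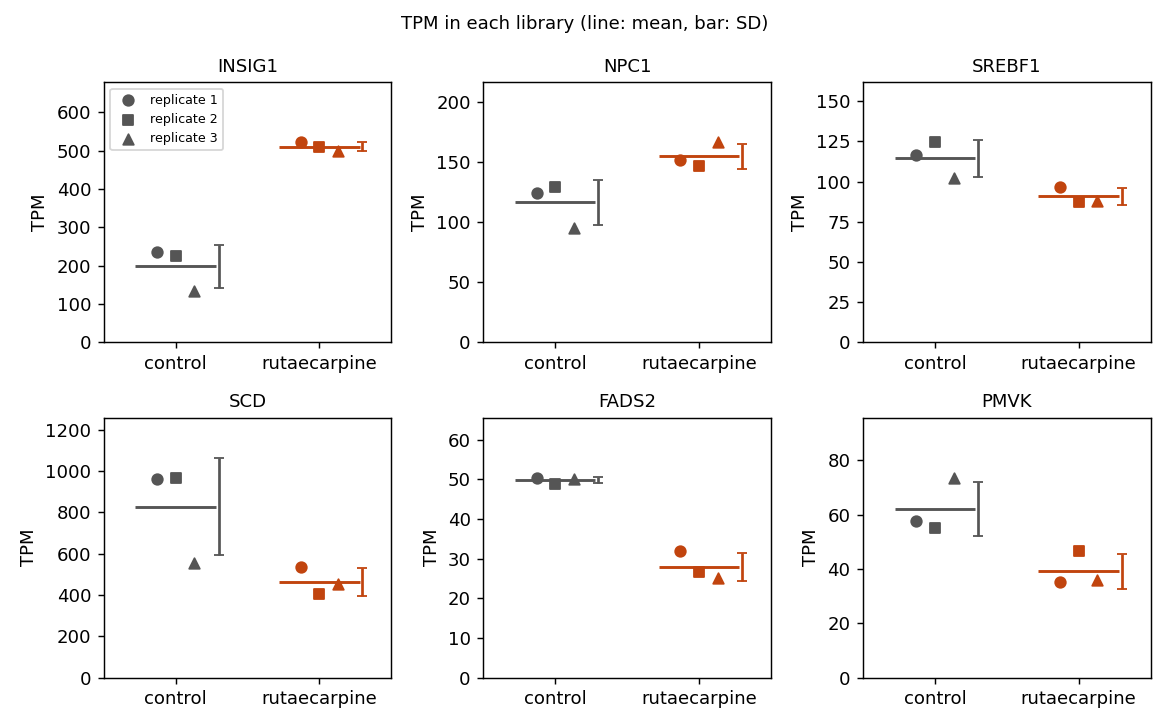
TPM (y axis, from 0) of 6 genes in each control and rutaecarpine library (x axis). Symbols mark the replicate number, lines the means and bars the SD (n = 3). The groups do not overlap in any of the 6 panels. In the INSIG1, NPC1, SREBF1 and SCD panels control replicate 3 is the lowest control, and in that of PMVK it is the highest.

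The genes of the SREBP factors did not pass. SREBF1 (ENSG00000072310), whose product mainly drives fatty acid genes, had 117, 124 and 102 TPM in the controls and 96.9, 87.2 and 88.1 TPM after rutaecarpine. All treated libraries were below the controls, with a log2 fold change of -0.33 (standard error 0.10, limma adjusted p = 0.0997). Without control replicate 3 the log2 fold change was -0.41 and the adjusted p in limma was 0.0105. SREBF2, whose product mainly drives sterol genes, had 92.3, 96.2 and 76.0 TPM in the controls and 89.3, 72.6 and 83.9 TPM after rutaecarpine, with overlapping groups (log2 fold change -0.10, limma adjusted p = 0.650, and -0.20 with an adjusted p of 0.196 without control replicate 3). SCAP, the escort of the SREBP factors, lay between 33.5 and 39.7 TPM in all 6 libraries. SREBF1 transcripts per SREBF2 transcript were 1.26, 1.29 and 1.34 in the controls and 1.09, 1.20 and 1.05 after rutaecarpine, so the groups did not overlap (exact permutation p = 0.1, the smallest possible).

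In the branch from acetyl-CoA to lanosterol, 1 of 10 genes passed downward and 0 upward in limma, against 4.68% and 4.6% of all tested genes. At an unadjusted p under 0.05, 0 were higher and 3 were lower, against 13.4% and 11.0% of all tested genes. The median log2 fold change was -0.16. PMVK (ENSG00000163344, chromosome 1, 154924734 to 154936991, minus strand) had 57.6, 55.2 and 73.7 TPM in the controls and 35.1, 46.7 and 35.8 TPM after rutaecarpine. All treated libraries were below the controls. The log2 fold change was -0.65 (standard error 0.16) with a limma adjusted p of 0.0486, just inside the threshold. Without control replicate 3 it was -0.53 (limma adjusted p = 0.0307). PMVK passed in 4 of the 14 alternatives and in 1 of the 6 that left out 1 library, with adjusted p values from 0.00226 to 0.191.

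In 5 other genes of this branch all treated libraries were also below the controls. With PMVK that made 6 of the 10 genes (60%), against 14.0% of all tested genes, and 0 lay above without overlap, against 19.3%. With trends on transcript length and GC content removed it was 4 of the 10 (40%, against 13.6%). MVK, the kinase just before PMVK, had 28.5, 22.6 and 32.3 TPM in the controls and 19.2, 20.7 and 20.5 TPM after rutaecarpine (log2 fold change -0.43, limma adjusted p = 0.131). ACAT2, the cytosolic thiolase of the first step, had a log2 fold change of -0.32 (limma adjusted p = 0.132), which became -0.36 with an adjusted p of 0.0380 without control replicate 3. MVD (mevalonate diphosphate decarboxylase), FDPS (farnesyl diphosphate synthase) and FDFT1 (squalene synthase) had log2 fold changes of -0.22, -0.19 and -0.14. None of these 5 genes passed with all 6 libraries.

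HMGCS1, the synthase of HMG-CoA and a classic SREBP target, had 56.2, 52.1 and 19.2 TPM in the controls and 45.0, 38.2 and 46.1 TPM after rutaecarpine. Control replicate 3 was the lowest library, and the treated libraries lay between it and the other controls. Its log2 fold change turned from 0.15 with all libraries (limma adjusted p = 0.829) to -0.33 without control replicate 3 (limma adjusted p = 0.0668). SQLE, the squalene epoxidase, was likewise lowest in control replicate 3, with 58.5, 56.2 and 37.7 TPM in the controls and 52.2, 47.9 and 58.5 TPM after rutaecarpine (log2 fold change 0.08, and -0.12 without control replicate 3). IDI1, the isopentenyl diphosphate isomerase, had 46.9, 42.9 and 30.4 TPM in the controls and 40.1, 44.3 and 41.0 TPM after rutaecarpine (log2 fold change 0.08, and -0.10 without control replicate 3). LSS, the lanosterol synthase, was at 101 ± 13.9 TPM (SD, n = 3) in the controls and 103 ± 11.4 TPM (SD, n = 3) after rutaecarpine (log2 fold change 0.03, and -0.090 without control replicate 3). These 4 genes did not pass in any alternative.

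INSIG1 and HMGCS1 are both known SREBP targets, and their levels were set against each other within each library. There were 4.18, 4.33 and 6.90 INSIG1 transcripts per HMGCS1 transcript in the controls and 11.6, 13.4 and 10.8 after rutaecarpine. The groups did not overlap (mean log2 difference 1.25, exact permutation p = 0.1, the smallest possible).

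From lanosterol to cholesterol, 0 of 8 genes passed in limma, where 4.6% of all tested genes passed upward and 4.68% downward. At an unadjusted p under 0.05, 0 were higher and 2 were lower, against 13.4% and 11.0% of all tested genes. The median log2 fold change was 0.05, and -0.11 without control replicate 3. EBP, the sterol isomerase, had 101, 93.5 and 115 TPM in the controls and 83.0, 83.8 and 71.4 TPM after rutaecarpine (log2 fold change -0.38, limma adjusted p = 0.0907). DHCR7, the reductase of the last step of one route to cholesterol, had 84.9, 88.3 and 90.8 TPM in the controls and 81.7, 67.5 and 73.6 TPM after rutaecarpine (log2 fold change -0.25, limma adjusted p = 0.176). In both genes, 25% of the branch, all treated libraries were below the controls, against 14.0% of all tested genes. In 1 gene (12.5%, against 19.3%) they were all above. NSDHL, which takes part in removing methyl groups from the sterol ring, was the only member of this branch with all treated libraries above the controls, at 29.3, 30.4 and 32.8 TPM against 37.2, 35.3 and 34.1 TPM (log2 fold change 0.20, limma adjusted p = 0.274). The groups of CYP51A1 (lanosterol demethylase), TM7SF2 (a sterol reductase), MSMO1 (methylsterol oxidase), HSD17B7 (a ketosteroid reductase) and SC5D (a sterol desaturase) overlapped, with log2 fold changes from -0.39 to 0.18. Without control replicate 3 the log2 fold changes of CYP51A1, MSMO1 and SC5D turned from 0.18, 0.03 and 0.07 to -0.011, -0.11 and -0.10. SC5D (4.27 to 6.98 TPM) was the weakest of the sterol enzymes.

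Genes of sterol uptake, transport and efflux had the highest median log2 fold change of the branches, 0.61 over the 3 tested genes, but this rested on control replicate 3, without which it was 0.17. None of the 3 passed in limma with all libraries, where 4.6% of all tested genes passed upward and 4.68% downward. At an unadjusted p under 0.05, 1 was higher and 0 were lower, against 13.4% and 11.0% of all tested genes. NPC1, the exporter of cholesterol from lysosomes, had 125, 130 and 95.5 TPM in the controls and 152, 147 and 167 TPM after rutaecarpine. All treated libraries were above the controls (log2 fold change 0.42, standard error 0.13, limma adjusted p = 0.100). Without control replicate 3 the NPC1 log2 fold change was 0.28 and the limma adjusted p was 0.0384.

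ABCA1, the exporter of cholesterol to lipid-poor apolipoprotein and a target of the LXR receptors, had 21.3, 22.3 and 7.25 TPM in the controls and 26.8, 19.5 and 28.6 TPM after rutaecarpine. Its groups overlapped, and the log2 fold change of 0.66 (standard error 0.40, limma adjusted p = 0.367) was 0.17 without control replicate 3. STARD4, a carrier of cholesterol between membranes, had 37.1, 39.3 and 14.2 TPM in the controls and 40.5, 41.3 and 45.8 TPM after rutaecarpine (log2 fold change 0.61, limma adjusted p = 0.354, and 0.15 without control replicate 3). MYLIP, a ubiquitin ligase for lipoprotein receptors and also an LXR target, was at 0.90, 0.93 and 0.62 TPM in the controls and 1.01, 0.93 and 1.06 TPM after rutaecarpine and was not tested. ABCG1, another sterol exporter, did not pass 0.10 TPM in any library. NPC1 was thus the only member of the branch that passed in any of the 14 alternatives, in 3 of them.

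Among fatty acid genes, 1 of 8 passed downward and 0 upward in limma, against 4.68% and 4.6% of all tested genes. At an unadjusted p under 0.05, 0 were higher and 3 were lower, against 13.4% and 11.0% of all tested genes. The median log2 fold change was -0.16, and -0.40 without control replicate 3. FADS2 (ENSG00000134824, chromosome 11, 61792980 to 61867354, plus strand) had 50.4, 48.9 and 50.1 TPM in the controls and 31.9, 26.7 and 25.1 TPM after rutaecarpine. The control libraries were nearly equal (49.8 ± 0.80 TPM, SD, n = 3) and every treated library was below them (27.9 ± 3.58 TPM, SD, n = 3). The log2 fold change was -0.82 (standard error 0.11, limma adjusted p = 0.00618) and was again -0.82 without control replicate 3 (limma adjusted p = 0.00312). FADS2 passed in each of the 14 alternatives, with log2 fold changes from -0.92 to -0.75.

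FADS1, the partner desaturase that acts on polyunsaturated fatty acids after FADS2, had 128, 128 and 88.5 TPM in the controls and 116, 88.9 and 109 TPM after rutaecarpine, and its groups overlapped (log2 fold change -0.12, limma adjusted p = 0.692, and -0.30 with an adjusted p of 0.109 without control replicate 3). FADS1 lies on chromosome 11 from 61799625 to 61829318 on the minus strand, within the annotated span of FADS2 on the other strand. Whether reads were counted by strand is not given in the sources used here, so reads from shared stretches cannot be assigned with certainty. FADS1 transcripts per FADS2 transcript were 2.54, 2.62 and 1.77 in the controls and 3.62, 3.33 and 4.35 after rutaecarpine, without overlap (exact permutation p = 0.1, the smallest possible).

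SCD (ENSG00000099194, chromosome 10, 100347124 to 100364834, plus strand) had 960, 968 and 557 TPM in the controls and 535, 403 and 453 TPM after rutaecarpine. All treated libraries were below the controls, but control replicate 3 was close to rutaecarpine replicate 1. The log2 fold change was -0.80 (standard error 0.23, limma adjusted p = 0.0772) with all libraries and -1.06 (standard error 0.11, limma adjusted p = 0.000837) without control replicate 3, where SCD met the criterion for a DEG. SCD passed in 4 of the 14 alternatives. FASN, the fatty acid synthase, had 87.3, 88.5 and 83.8 TPM in the controls and 88.9, 74.7 and 76.0 TPM after rutaecarpine, with overlapping groups (log2 fold change -0.12, limma adjusted p = 0.491). SCD transcripts per FASN transcript were 11.0, 10.9 and 6.64 in the controls and 6.02, 5.39 and 5.96 after rutaecarpine, without overlap (exact permutation p = 0.1, the smallest possible).

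ACACA and ACLY, which supply precursors of fatty acid synthesis, had lower mean TPM after rutaecarpine, and neither passed with all libraries. ACACA, the acetyl-CoA carboxylase, had 32.2, 28.4 and 24.0 TPM in the controls and 23.7, 20.7 and 21.9 TPM after rutaecarpine, without overlap (log2 fold change -0.33, limma adjusted p = 0.197, and -0.44 with an adjusted p of 0.0278 without control replicate 3). ACLY, the citrate lyase that makes cytosolic acetyl-CoA, had 161, 160 and 114 TPM in the controls and 135, 111 and 130 TPM after rutaecarpine. Its groups overlapped (log2 fold change -0.20, limma adjusted p = 0.485, and -0.36 with an adjusted p of 0.0357 without control replicate 3). ELOVL6, an elongase of saturated fatty acids, spread widely, with 16.0, 28.4 and 9.08 TPM in the controls and 17.8, 11.6 and 18.1 TPM after rutaecarpine (log2 fold change -0.05, limma adjusted p = 0.948, and -0.43 with an adjusted p of 0.314 without control replicate 3). LPIN1, a phosphatidate phosphatase, had 39.1, 37.2 and 15.7 TPM in the controls and 38.0, 28.3 and 37.3 TPM after rutaecarpine. Its log2 fold change turned from 0.26 to -0.15 without control replicate 3 (limma adjusted p = 0.670 and 0.497).

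Control replicate 3 decided how many members passed. Without it, 2 members passed upward in limma (5.88% of 34, against 8.36% of 14188 tested genes), INSIG1 and NPC1, and 7 passed downward (20.6%, against 10.3%), ACACA, ACAT2, ACLY, FADS2, PMVK, SCD and SREBF1. The number of members with a lower value went from 18 (52.9%) to 26 (76.5%) of 34, against 40.7% and 50.9% of all tested genes. The median log2 fold change of the members went from -0.08 to -0.15. Removing 1 library also changed the median over all tested genes, from 0.08 to -0.01.

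**Figure D3:**
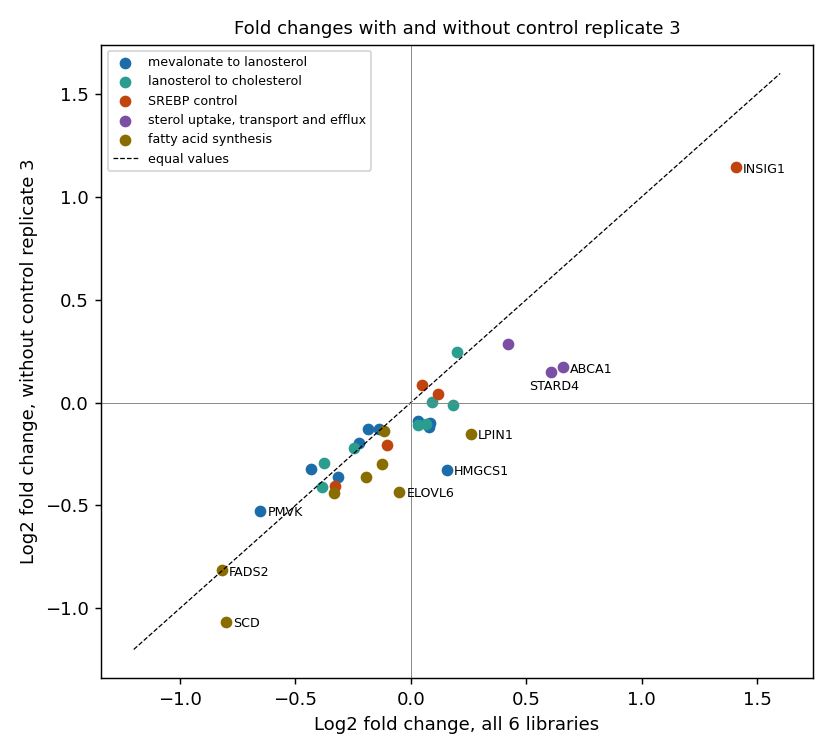
Log2 fold change (rutaecarpine minus control) of the 34 tested genes with all 6 libraries (x axis) and without control replicate 3 (y axis), coloured by branch, with a dashed line of equal values. INSIG1, FADS2 and PMVK keep their sign (1.14, -0.82 and -0.53 on the y axis), while HMGCS1 and LPIN1 lie above 0 on the x axis and below 0 on the y axis, and ABCA1 and STARD4 have y values of 0.17 and 0.15.

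In control replicate 3 the members were lower than in the other 2 controls for 24 of the 34 tested genes, with a median difference of -0.31 in log2(TPM + 1), against -0.24 over 14267 tested genes with an annotated transcript. The difference ran with transcript length. Across the 34 members Pearson's r between it and the log2 length of the longest GENCODE transcript was -0.50, and across the 14267 genes it was -0.40, both as descriptions, since all points come from the same libraries. ABCA1, with 10494 bases the longest of the tested members, was lower in control replicate 3 by a log2 difference of -1.47, while PMVK, with 1280 bases the shortest, was higher by 0.38. HMGCS1 (3506 bases, 40.2% GC) at -1.45 and FASN (8565 bases, 65.3% GC) at -0.07 lay off this trend. With trends on transcript length and GC content removed from each library, SCD and NPC1 passed besides INSIG1, FADS2 and PMVK. The part of transcript length and of GC content in each gene's difference was not tested.

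**Figure D4:**
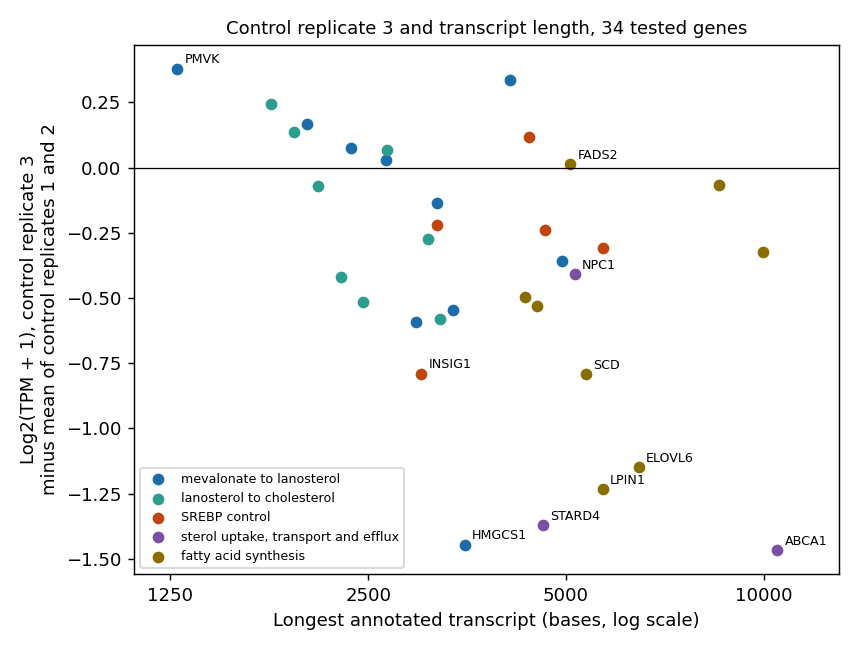
Difference in log2(TPM + 1) between control replicate 3 and the mean of control replicates 1 and 2 (y axis) against the length of the longest annotated transcript in bases (x axis, log scale) for the 34 tested genes, coloured by branch. Short transcripts such as PMVK (0.38) lie above 0, and ABCA1 (-1.47), HMGCS1 (-1.45), STARD4 (-1.37) and LPIN1 (-1.23) lie lowest.

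Of 38 further genes of sterol and fatty acid handling, 35 were tested, and in limma 2 passed upward (5.71%, against 4.6% of all tested genes) and 3 downward (8.57%, against 4.68%). Without control replicate 3 these counts were 4 upward (11.4%, against 8.36% of all tested genes) and 7 downward (20%, against 10.3%). The 4 were ACSL1, MLXIPL, NR1H2 and VLDLR, and the 7 were ACACB, ERLIN1, HACD3, NPC2, PLTP, TECR and TMEM97. The median log2 fold change of the 35 was 0.08, and -0.066 without control replicate 3. Among the sterol genes, PLTP, the phospholipid transfer protein and an LXR target, fell from 526 ± 34.3 to 321 ± 15.8 TPM (SD, n = 3), which is -0.71 on the log2 scale (limma adjusted p = 0.00286). NPC2, the soluble partner of NPC1 in lysosomes, fell from 788 ± 49.7 to 599 ± 12.4 TPM, which is -0.39 on the log2 scale (limma adjusted p = 0.0196), while NPC1 had higher values. TMEM97, a sterol-regulated membrane protein that binds NPC1, fell from 9.81 ± 1.39 to 4.89 ± 0.31 TPM, which is -0.87 on the log2 scale (limma adjusted p = 0.0187). PLTP passed in each of the 6 analyses that left out 1 library, NPC2 and TMEM97 in 1, that without control replicate 3.

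Among the fatty acid genes of this list, ACSL1, which activates long-chain fatty acids with coenzyme A, rose from 43.9 ± 9.73 to 79.4 ± 7.83 TPM (SD, n = 3), which is 0.86 on the log2 scale (limma adjusted p = 0.0261). MLXIPL, the carbohydrate-responsive factor ChREBP, had 2.15, 1.62 and 2.29 TPM in the controls and 4.60, 9.13 and 7.72 TPM after rutaecarpine. It rose by 1.40 on the log2 scale (limma adjusted p = 0.0175) from a low level. ACSL1 and MLXIPL each passed in 2 of the 6 analyses that left out 1 library, with adjusted p values over the 14 alternatives from 0.000935 to 0.122 and from 0.0031 to 0.0907. NR1H2 and NR1H3 encode the LXR receptors. NR1H2, the more abundant, had 90.2, 82.1 and 115 TPM in the controls and 108, 115 and 99.9 TPM after rutaecarpine, with overlapping groups (log2 fold change 0.18, limma adjusted p = 0.475, and 0.32 with an adjusted p of 0.0402 without control replicate 3). NR1H3 had 19.4, 21.2 and 17.8 TPM in the controls and 15.4, 16.7 and 15.4 TPM after rutaecarpine (log2 fold change -0.28, limma adjusted p = 0.219, and -0.34 with an adjusted p of 0.0648 without control replicate 3), and the treated libraries all lay below the controls. IDI2, ME1 and LPIN3 were not tested, with 0.78 TPM or less in every library.

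Summed over its members, the SREBP control branch held 512, 505 and 373 TPM in the controls and 770, 743 and 736 TPM after rutaecarpine. INSIG1 was the largest part of this sum in every library. The fatty acid branch held 1475, 1487 and 941 TPM in the controls and 986, 764 and 870 TPM after rutaecarpine, of which SCD was the largest part in every library. The sums of the branch to lanosterol were 839, 797 and 783 TPM in the controls and 721, 723 and 725 TPM after rutaecarpine, those of lanosterol to cholesterol 390, 377 and 362 TPM against 371, 341 and 335 TPM, and those of transport and efflux 184, 192 and 118 TPM against 221, 208 and 242 TPM. The sums did not overlap between the groups in the branch to lanosterol, in SREBP control and in transport and efflux. They overlapped in the fatty acid branch, where control replicate 3 lay below rutaecarpine replicate 1, and from lanosterol to cholesterol. In transport and efflux, NPC1 was the largest part of the sum in every library, and control replicate 3 had the lowest sum.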

How the data were processed

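The deposited values are TPM, which the authors made with RSEM from Illumina NovaSeq reads, 1 column per library. The submitters' processing notes name GRCh38.p13. The aligner, annotation release and filters are not given in the sources used here. Each of the 6 library columns matched 1 sample by name. Unnamed rows were looked up by Ensembl identifier. TPM keep no read numbers, so depth and counting error are unknown. RSEM divides reads among gene copies, so genes with pseudogene copies such as FDPS and HSD17B7 are uncertain.

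On the log2(TPM + 1) scale, the 14377 genes that reached 1 TPM in 3 or more libraries were compared with limma 3.58.1 in R 4.3.3 (empirical Bayes with a mean-variance trend, two-sided, Benjamini-Hochberg adjustment over all tested genes). A gene passed at an adjusted p of at most 0.05, and was a DEG with an absolute log2 fold change above 1 as well. Fold changes understate those of weak genes. The fit was also run on simulated data with independent noise. The spread of that noise was taken without control replicate 3, so the run cannot show how the fit handles such a library.

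The members, lists, motifs and alternatives were chosen with earlier results of these data known. Named with all values are members that passed, 12 chosen by role (HMGCS1, IDI1, SQLE, INSIG1, SREBF1, SREBF2, SCD, FASN, ABCA1, ABCG1, MYLIP and LPIN1) and further members, chosen after their values were seen. Of the further pathway genes those that passed with all libraries are given with values, besides NR1H2, NR1H3 and the 3 untested genes. Those that passed only without control replicate 3 are otherwise named without values. The alternatives were median centring, a pseudocount of 0.1, no filter, a filter of 1 TPM in all libraries, no trend, library weights, a replicate block and leaving out each library. A fit with the trends in transcript length and GC removed (natural splines with 5 degrees of freedom) was chosen after the data of control replicate 3 had been seen. Figures were drawn in Python 3.11.15 with matplotlib 3.10.9.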

Additional observations from a re-analysis of the deposited data

How the results depend on the processing

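INSIG1 passed upward and FADS2 downward under each of the 14 alternatives, and the number of up-regulated DEGs among the members was 1 in all of them. The number of members that passed upward was 3 with library weights (8.82%, against 13.5% of all tested genes). With length and GC trends removed it was 2 (5.88%, against 6.51%). The number that passed downward was 8 with library weights (23.5%, against 14.1%). It was 1 with a pseudocount of 0.1, with no filter, without the trend and with the replicate block. In these settings 1.34% to 4.52% of all tested genes passed downward. Leaving out 1 library at a time gave 1 to 2 members upward, against 1.71% to 8.36% of all tested genes. Downward it gave 1 to 7 members, against 1.83% to 10.3%. There were 1 up-regulated DEG and 0 to 1 down-regulated DEGs among the members. Without overlap were 4 to 5 members upward, against 20.9% to 30.2% of all tested genes, and 12 to 16 downward, against 15.9% to 26.3%. The highest downward counts, and the highest downward shares of all tested genes, came without control replicate 3. The members without overlap downward were 8 with length and GC trends removed (23.5%, against 13.6% of all tested genes). Those upward were 3 with the libraries centred on their medians (8.82%, against 15.8%). Over the analyses that left out 1 library, the median log2 fold change of the 34 members ranged from -0.15 to -0.02. It ranged from -0.20 to -0.14 in the branch to lanosterol and from -0.11 to 0.14 in that from lanosterol to cholesterol. For SREBP control it was -0.02 to 0.07, for transport and efflux 0.17 to 0.85 and for fatty acid synthesis -0.40 to -0.09. The median of the branch to lanosterol was -0.26 with the libraries centred on their medians and -0.10 with length and GC trends removed. Genes near 0 changed sign, and the cause was not tested. With centring the log2 fold change was -0.012 for IDI1, -0.014 for SQLE, -0.063 for LSS, -0.060 for MSMO1, -0.0011 for HSD17B7, -0.025 for SC5D and -0.045 for SCAP. With library weights it was -0.23 for HMGCS1, -0.10 for IDI1, -0.072 for SQLE, -0.029 for LSS, -0.059 for MSMO1, -0.029 for HSD17B7, -0.071 for SC5D, -0.032 for INSIG2 and -0.031 for LPIN1. With length and GC trends removed it was -0.029 for MSMO1. Over the analyses that left out 1 library it ranged from -0.33 to 0.42 for HMGCS1, -0.10 to 0.20 for IDI1, -0.12 to 0.19 for SQLE, -0.090 to 0.12 for LSS, -0.011 to 0.29 for CYP51A1, -0.11 to 0.14 for MSMO1, -0.10 to 0.22 for SC5D, -0.054 to 0.23 for INSIG2, -0.016 to 0.088 for SCAP, -0.43 to 0.34 for ELOVL6 and -0.15 to 0.48 for LPIN1. Deviations from the group means correlated at 0.116, -0.266 and -0.215 between same-numbered libraries of replicates 1, 2 and 3. The highest correlation was 0.387, between control replicate 3 and rutaecarpine replicate 2. With 3 libraries per group these values cannot settle whether same-numbered libraries were handled together. With the replicate block PMVK no longer passed. The unknown read depth limits what can be said of weak genes such as ABCG1 and MYLIP.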
